A study of Mus musculus with 6 samples.

Results

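Transcripts of 10 Toll-like receptors, Tlr1 to Tlr9 and Tlr13, were followed in RNA sequencing of articular cartilage from mice aged 2 months and 18 months. The members were chosen by gene symbol, and each of the 10 symbols was found once among the 33971 genes of the table. All mice were wildtype, and the labels name no treatment and no strain for these libraries. Each age had 3 libraries, called 2-month replicates 1 to 3 and 18-month replicates 1 to 3. Nothing in the labels says whether a library came from 1 animal or from several, so p-values measure only the spread between these libraries. The table gave raw read counts, and beside them FPKM, a level corrected for transcript length and for library size. Levels of different receptors are compared below as FPKM only, and the test of age was made on the counts.

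Toll-like receptors are membrane proteins of the innate immune system that recognise molecules of microbes and of damaged cells. Tlr1, Tlr2, Tlr4, Tlr5 and Tlr6 act mainly at the cell surface, while Tlr3, Tlr7, Tlr8, Tlr9 and Tlr13 act in endosomes, where they meet nucleic acids. Most of them signal through the adaptor MyD88 to the transcription factor NF-κB, Tlr3 signals through the adaptor TRIF, which Ticam1 encodes, and Tlr4 uses both. Macrophages, neutrophils, dendritic cells and B cells carry many of these receptors, and Tlr2 and Tlr4 are also known from chondrocytes, where their ligands include fragments of the cartilage matrix.

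The libraries held between 48171507 and 59085179 counts, and no pair of same-age libraries was alike within counting noise. The sex pattern divided with age. Xist, the transcript of the inactive X chromosome, had 88239 to 102417 counts at 2 months and 11 to 30 at 18 months, and the Y-linked gene Ddx3y had 0 to 10 and 4333 to 4839 counts. The study's methods describe male mice, so the 2-month libraries go against that description, and age and sex cannot be told apart for Tlr7, Tlr8 and Tlr13, which lie on the X chromosome, or for any other gene. A list of 14 chondrocyte markers summed to 45016 to 70191 CPM, counts scaled to a common library total, at 2 months and to 631 to 1678 at 18 months. All 14 were called lower, and Matn1 and Matn3 were at 0 in 18-month replicate 3, so the defining markers of the labelled tissue were low in the aged libraries. A list of 5 genes that mark all leukocytes (Ptprc, Coro1a, Cd53, Laptm5 and Cd52) summed to 15.6, 458 and 45.0 CPM in 2-month replicates 1, 2 and 3 and to 2310 to 2450 CPM at 18 months. Of these 5 genes, 1 was called higher, 5 did not overlap between the ages, and none was at 0 in any library. By the rule given below, 14.9% of all genes tested were called higher and 21.3% lower. Of all genes tested, 33.9% were higher in every 18-month library and 34.6% lower. In tissue RNA, fewer cells of a type and less RNA per cell cannot be told apart.

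Transcripts of 8 of the 10 receptors were higher in every 18-month library than in every 2-month library, Tlr3 was lower in every one, and Tlr4 overlapped between the ages. Calls rest on the quasi-likelihood test of edgeR, with p-values adjusted by Benjamini-Hochberg over all genes tested, and needed an adjusted p under 0.05 together with a change of more than 1 on the log2 scale in either direction. By this rule Tlr2, Tlr5, Tlr6, Tlr7 and Tlr13 were called higher, Tlr3 was called lower, and Tlr1, Tlr4, Tlr8 and Tlr9 were not called. Over all 20397 genes tested, 14.9% were called higher and 21.3% lower, 36.3% in either direction. Non-overlap between the ages was also common over all genes, with 33.9% of genes higher in every 18-month library and 34.6% lower. All 10 receptors passed the filter on low counts. Their median log2 fold change was 2.53, beside −0.02 over all genes tested.

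**Figure D1:**
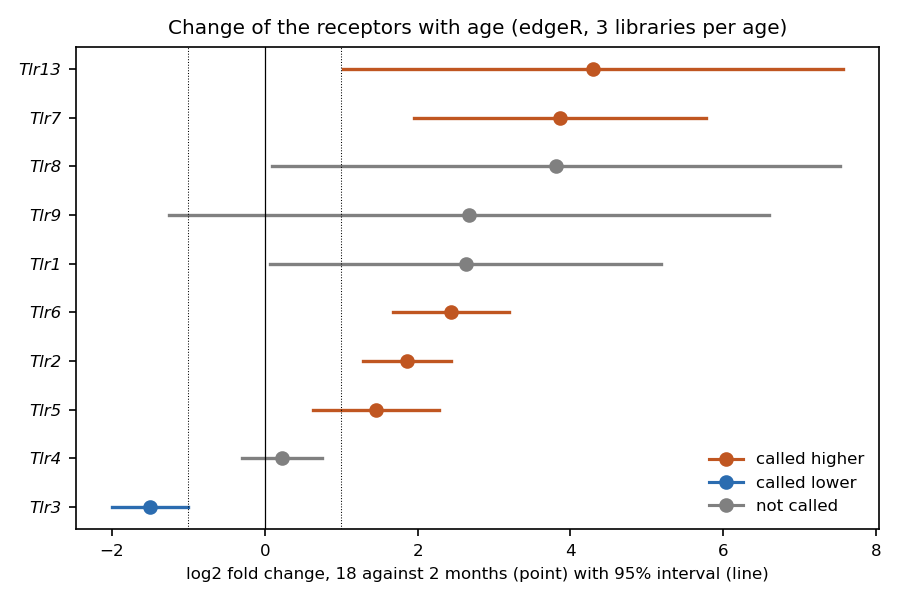
Log2 fold change of each receptor at 18 against 2 months (points) with its 95% interval from edgeR (lines), over 3 libraries per age, with dotted lines at −1 and 1. The points run from −1.50 for Tlr3 to 4.30 for Tlr13, and the intervals of Tlr4 and Tlr9 include 0.

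Among the receptors of the cell surface, Tlr2 had the highest level at 18 months. Tlr2 recognises bacterial lipoproteins as a partner of Tlr1 or Tlr6. Its FPKM was 2.44, 4.81 and 3.24 in 2-month replicates 1, 2 and 3 and 14.9, 12.3 and 12.6 in 18-month replicates 1, 2 and 3. Every aged library lay above every young one, and 2-month replicate 2 was the highest of the young libraries. The log2 fold change was 1.86 (standard error 0.23, edgeR adjusted p = 0.00245). Tlr2 (ENSMUSG00000027995) is on the minus strand of chromosome 3, 83836272 to 83841767.

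Tlr6, a partner of Tlr2 for lipoproteins with diacylated ends, had an FPKM of 0.462, 1.09 and 0.757 at 2 months and 4.21, 4.45 and 4.41 at 18 months. The aged libraries differed little among themselves, and the young ones lay below all of them. Its log2 fold change was 2.43 (standard error 0.31, edgeR adjusted p = 0.00249). Tlr1, the partner for triacylated lipoproteins, had an FPKM of 0.0455, 1.28 and 0.240 at 2 months, which rests on 9, 252 and 46 counts. At 18 months its FPKM was 3.57, 3.25 and 3.07. The ages did not overlap, but the young libraries spread far apart and Tlr1 did not pass the test, with a log2 fold change of 2.63 (standard error 1.04, 95% interval 0.07 to 5.19, edgeR adjusted p = 0.0792). Without 2-month replicate 2 its log2 fold change was 4.37 and it was called (edgeR adjusted p = 0.00263, range over fits with 1 library left out 0.00263 to 0.196). With all libraries Tlr1 was called higher in 5 of 12 alternatives, which were DESeq2 (adjusted p = 0.00896) and 4 limma fits on log2 FPKM or TPM.

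Tlr1 (ENSMUSG00000044827, chromosome 5, 64924679 to 64933561) and Tlr6 (ENSMUSG00000051498, chromosome 5, 64952031 to 64960048) are neighbouring genes on the minus strand with 18469 bases between them. Both are paralogs whose coding sequence lies in a single exon. Of the windows of 150 bases, the length of 1 read, in the transcript of Tlr1 with the longest coding sequence, 4.83% also occurred in Tlr6, and 3.94% of the windows of Tlr6 occurred in Tlr1. Reads from those stretches could be divided between both genes by the authors' counting, so both values are uncertain to that extent. None of the other 8 receptors had a window of this length in a transcript of another gene.

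Tlr4, the receptor for bacterial lipopolysaccharide, was the receptor whose level moved least with age. Its FPKM was 5.43, 3.62 and 5.05 at 2 months and 6.78, 5.34 and 5.52 at 18 months. The ages overlapped, with 2-month replicate 1 above 18-month replicate 2 and 2-month replicate 2 the lowest of all. The log2 fold change was 0.23 (standard error 0.21, 95% interval −0.30 to 0.76, edgeR adjusted p = 0.404), so changes anywhere from −0.30 to 0.76 on the log2 scale lie within the interval. After FPKM values were rescaled to TPM, a unit with the same sum in every library, in a limma fit, which moved the median of all genes to −0.33, the value for Tlr4 was −0.10. Tlr4 (ENSMUSG00000039005) spans chromosome 4 from 66827584 to 66930284 on the plus strand, the longest of the 10 genes at 102701 bases.

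Tlr5, the receptor for bacterial flagellin, was at low levels throughout. Its FPKM was 0.176, 0.312 and 0.273 at 2 months and 0.997, 0.648 and 0.590 at 18 months, and every aged library lay above every young one. The log2 fold change was 1.46 (standard error 0.34, edgeR adjusted p = 0.0151). Tlr5 was called in 7 of the 11 alternatives with all libraries, whose adjusted p-values ran from 9.37e-05 to 0.131. It was not called in limma with a pseudocount of 1, where its change was 0.47, in limma with TPM, in the glmTreat test against a fold change of 2, or with a replicate block (1.45, edgeR adjusted p = 0.0653). Tlr5 (ENSMUSG00000079164) lies on chromosome 1 from 182954788 to 182976044 on the plus strand.

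**Figure D2:**
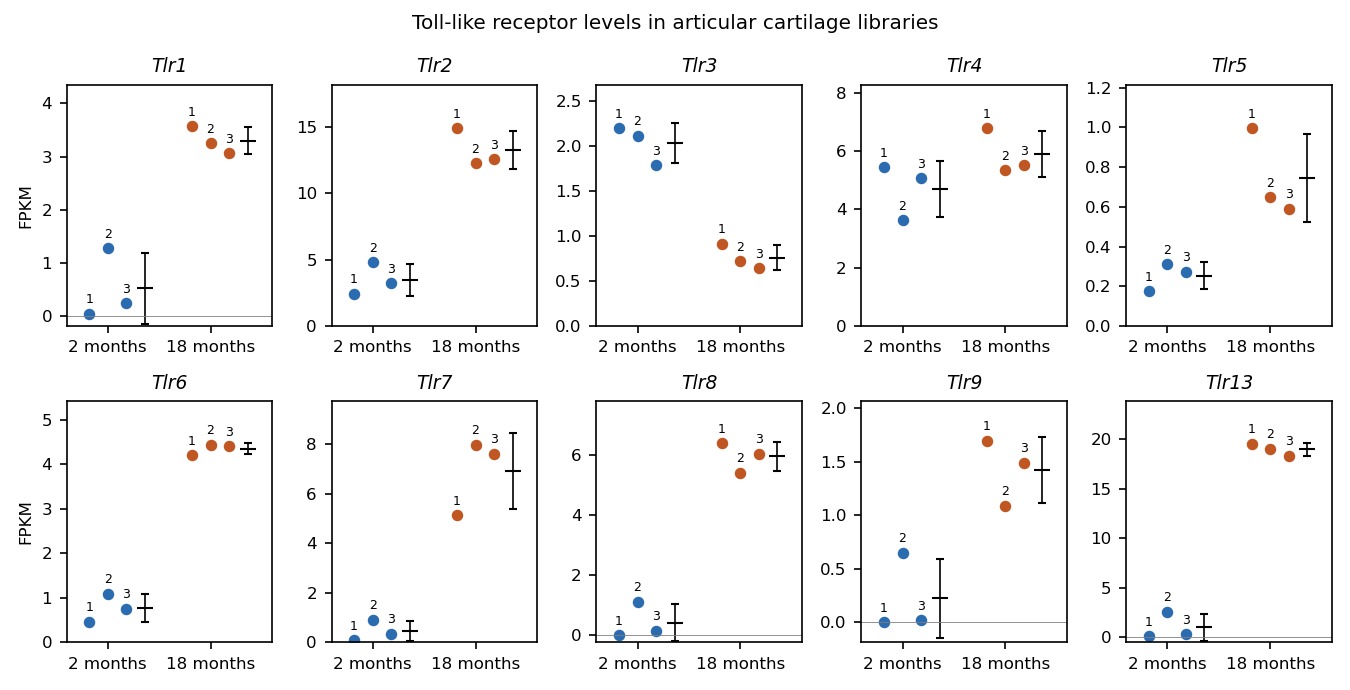
FPKM of each receptor in the 3 libraries of each age (points numbered by replicate), with the mean and SD beside them (black), each panel on its own linear axis. The aged points lie above the young points for 8 receptors and below them for Tlr3, and 2-month replicate 2 is the highest young library for every receptor other than Tlr3 and Tlr4.

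Of the receptors of endosomes, Tlr3 was the only receptor among the 10 with lower levels at 18 months. Tlr3 recognises double-stranded RNA. It had 630, 648 and 524 counts at 2 months and 321, 237 and 214 at 18 months, or an FPKM of 2.20, 2.11 and 1.78 against 0.914, 0.719 and 0.643. The young libraries were close to each other and all lay above the aged ones. The log2 fold change was −1.50 (standard error 0.20, edgeR adjusted p = 0.00284). Tlr3 kept its direction in each alternative, from −1.81 to −0.79 with all libraries, and was past both limits in 11 of 12 of them. It fell short of the fold limit in limma with a pseudocount of 1. Tlr3 (ENSMUSG00000031639, chromosome 8, 45395665 to 45411080, minus strand) is overlapped in GENCODE M21 by the antisense gene Gm45542. The libraries were strand-specific, and whether the counting used strand is not given in the sources used here.

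Tlr13, which recognises bacterial ribosomal RNA, had the largest fitted change of the 10. Its counts were 12, 646 and 66 at 2 months and 5667, 5165 and 5032 at 18 months. In FPKM these were 0.0473, 2.56 and 0.271 against 19.6, 19.1 and 18.3, so the aged libraries were alike and the young ones were far apart. The log2 fold change was 4.30 (standard error 1.33, edgeR adjusted p = 0.0389). Without 2-month replicate 2 it was 6.76 (edgeR adjusted p = 0.000487). Without 2-month replicate 3 or without any one of the 18-month libraries the adjusted p-value was 0.0832 to 0.107, and Tlr13 was not called. With no filter on low counts and with glmTreat, Tlr13 was also not called, at adjusted p-values of 0.0548 and 0.0873. Tlr13 (ENSMUSG00000033777) lies on chromosome X from 106143204 to 106160493 on the plus strand.

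Tlr7 and Tlr8 are neighbours on the X chromosome and both respond to single-stranded RNA or its breakdown products. Tlr7 had 23, 222 and 82 counts at 2 months and 1410, 2049 and 1984 at 18 months, with an FPKM of 0.101, 0.920 and 0.356 against 5.13, 7.97 and 7.61. Every aged library was far above every young one. Its log2 fold change was 3.87 (standard error 0.77, edgeR adjusted p = 0.00949), and Tlr7 was called in each of the 12 alternatives with all libraries and in each of the 6 with 1 library left out. Tlr8 had 0, 235 and 30 counts at 2 months and 1546, 1226 and 1386 at 18 months. The count of 0 in 2-month replicate 1 allows up to 3 counts, or 0.0621 CPM, and covers counting error only. The ages did not overlap, but Tlr8 did not pass the test, with a log2 fold change of 3.81 (standard error 1.51, 95% interval 0.09 to 7.52, edgeR adjusted p = 0.0794). It was called without 2-month replicate 2, at 6.20 (edgeR adjusted p = 0.00333), and without 2-month replicate 1, at 3.23 (edgeR adjusted p = 0.0355), in a range of 0.00333 to 0.190 over fits with 1 library left out. With all libraries Tlr8 was called higher in 5 of 12 alternatives, DESeq2 (adjusted p = 0.0105) and the same 4 limma fits.

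Tlr7 (ENSMUSG00000044583, chromosome X, 167304929 to 167330558) and Tlr8 (ENSMUSG00000040522, chromosome X, 167242696 to 167264329) both lie on the minus strand with 40599 bases between them. Tlr9, which recognises DNA with unmethylated CpG, had 0, 132 and 4 counts at 2 months and 397, 239 and 331 at 18 months. The young libraries were at or near 0 except replicate 2, which still lay below the aged ones. Its log2 fold change was 2.67 (standard error 1.59, 95% interval −1.25 to 6.60, edgeR adjusted p = 0.204), and without 2-month replicate 2 it was 6.93 (edgeR adjusted p = 0.00111, range over fits with 1 library left out 0.00111 to 0.353). With all libraries Tlr9 was called higher in 3 of 11 alternatives, all of them limma fits on log2 FPKM, and not by DESeq2 (adjusted p = 0.109). Tlr9 (ENSMUSG00000045322) lies on chromosome 9 from 106222598 to 106226883 on the plus strand. Tlr11 and Tlr12, the remaining receptors of the mouse, had 0, 20 and 0 and 7, 88 and 7 counts at 2 months and 50 to 76 and 125 to 260 at 18 months, and neither was called.

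The receptors differed in how far 2-month replicate 2 stood from the other young libraries. For Tlr3 the FPKM in replicate 2 was 1.06 times the mean of replicates 1 and 3, and for Tlr4 it was 0.691 times. For Tlr5, Tlr2 and Tlr6 the ratio was 1.39, 1.69 and 1.79. It was 4.03 for Tlr7, 8.96 for Tlr1, 15.4 for Tlr8, 16.1 for Tlr13 and 67.3 for Tlr9, which has 4 counts in those libraries together. The sum of the leukocyte list was 15.1 times higher in replicate 2 by the same measure. That of 13 monocyte and macrophage markers was 8.43 times higher, that of 14 neutrophil markers 39.4 times and that of 14 chondrocyte markers 1.39 times. Lists outside the leukocytes were mixed by this measure. Erythroid markers were at 14.2 times, osteoclast markers 11.1, endothelial markers 8.07 and megakaryocyte markers 7.99. The sum of skeletal muscle markers was at 1.11 times. It was mostly Tnni2, with 3625, 4203 and 6120 counts in replicates 1, 2 and 3. Of the other muscle markers, Myh4 was highest in replicate 3 and the rest in replicate 2. The sum of fibroblast markers of synovium and tendon was lower in replicate 2, at 0.423 times. That sum was mostly Prg4, with 1433480, 644801 and 1555740 counts, and every other marker of the list was highest in replicate 2. Among the leukocyte lists, the sum for conventional dendritic cells was at 2.10 times. In replicates 1 and 3 that sum was mostly Zbtb46 and Batf3. Zbtb46 had 951, 1271 and 944 counts in replicates 1, 2 and 3, and Batf3 had 156, 202 and 83. Xcr1, Clec9a, Flt3, Cd209a and Itgax had 4, 108, 283, 117 and 499 counts in replicate 2. They had 0, 2, 0, 0 and 0 in replicate 1 and 0, 0, 4, 21 and 47 in replicate 3.

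The marker lists of other cell types differed in how they stood between the ages. Their counts stand beside 14.9% of all genes tested called higher and 21.3% called lower. Non-overlap over all genes was 33.9% higher and 34.6% lower in every 18-month library. The 13 monocyte and macrophage markers summed to 30.2, 586 and 109 CPM at 2 months and to 1790 to 1873 CPM at 18 months, where 3 of 13 were called higher and 11 did not overlap. Adgre1 and Vsig4 were at 0 in 2-month replicate 1. The 14 neutrophil markers summed to 17.4, 5627 and 268 CPM at 2 months and to 42915 to 46081 CPM at 18 months, with 0 of 14 called and 13 without overlap. Ly6g was at 0 in 2-month replicate 1, and Elane and Cxcr2 were at 0 in 2-month replicate 3. The 8 markers of plasmacytoid dendritic cells summed to 6.93, 153 and 9.69 CPM at 2 months and to 183 to 237 CPM at 18 months, with 1 of 8 called higher, 4 without overlap, and Siglech and Klk1 at 0 in 2-month replicate 3. The 10 markers of B cells summed to 10.4, 293 and 14.5 CPM at 2 months and to 196 to 226 CPM at 18 months, with 0 of 10 called, 1 without overlap, and Igll1 at 0 in 2-month replicate 1. For B cells 2-month replicate 2 lay above all 18-month libraries. The 7 markers of conventional dendritic cells summed to 22.9, 48.1 and 22.8 CPM at 2 months and to 62.9 to 73.0 CPM at 18 months. Of these, Xcr1 was called higher and Batf3 lower, while 5 were higher and 2 lower in every 18-month library. In 2-month replicates 1 and 3, 4 and 2 of them were at 0. The 10 markers of T and NK cells summed to 0.641 to 19.9 CPM at 2 months and to 144 to 172 CPM at 18 months, with 5 of 10 called higher and 10 without overlap, and 4 and 5 of them were at 0 in 2-month replicates 1 and 3.

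Lists outside the leukocytes also differed between the ages, and the same shares over all genes apply, 14.9% called higher and 21.3% lower. For non-overlap these shares were 33.9% higher and 34.6% lower. The 8 erythroid markers in the table summed to 204, 5653 and 591 CPM at 2 months and to 23446 to 31190 CPM at 18 months, with 2 of 8 called higher, 8 without overlap and none at 0. The 7 megakaryocyte markers summed to 7.39, 68.1 and 9.65 CPM at 2 months and to 1327 to 2015 CPM at 18 months, with 6 of 7 called higher and 7 without overlap, and 1 of them was at 0 in 2-month replicate 1 and 3 in 2-month replicate 3. Red cell precursors and megakaryocytes are cells of the bone marrow. In the opposite direction, 4 of 8 fibroblast markers of synovium and tendon were called lower and 1 higher, and 5 of 6 tested markers of skeletal muscle were called lower. None of the 7 osteoclast markers was called, and all 7 overlapped between the ages. The part of these cells in the levels of the receptors was not tested.

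**Figure D3:**
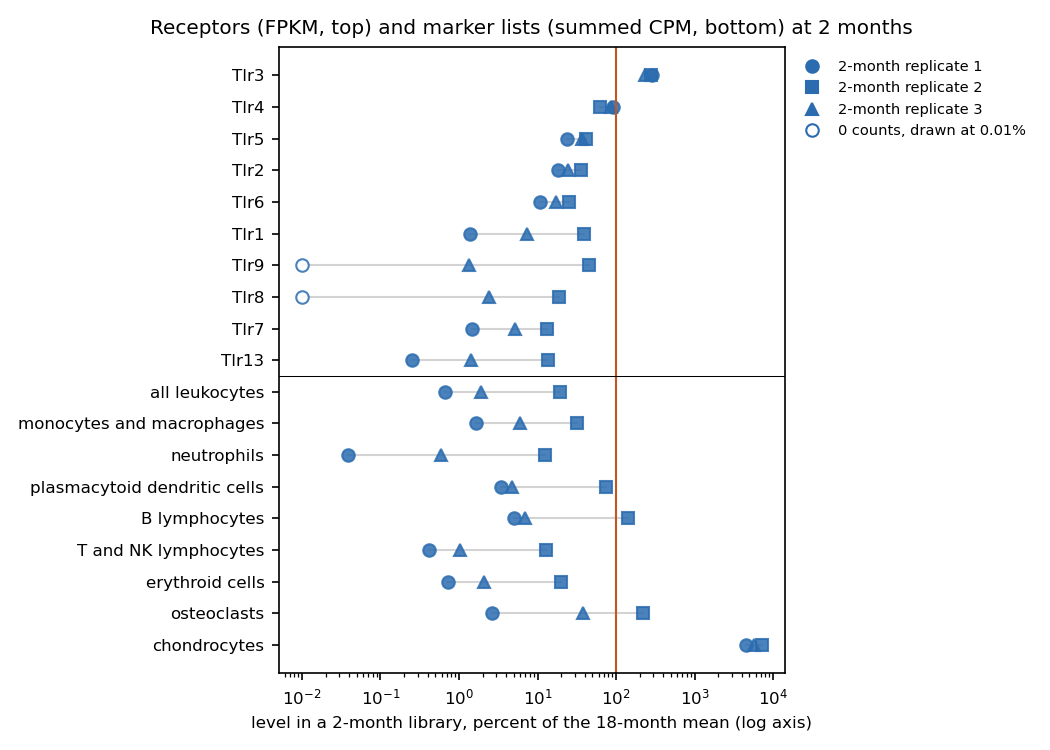
Level of each receptor (FPKM) and each marker list (summed CPM) in the 3 young libraries, as a percent of its 18-month mean on a log axis, where the line marks 100%. Tlr3 lies between 235% and 289% and Tlr4 between 61.6% and 92.4%, while Tlr13 runs from 0.249% in replicate 1 to 13.5% in replicate 2 and the leukocyte list from 0.660% to 19.4%.

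Receptor counts were also set against those of Ptprc, which encodes the leukocyte antigen CD45, as a description with no test. Ptprc had 38, 5842 and 392 counts in 2-month replicates 1, 2 and 3 and 25029 to 35268 at 18 months. Per 100 Ptprc counts, Tlr13 had 31.6, 11.1 and 16.8 counts at 2 months and 16.1 to 20.2 at 18 months. For Tlr8 the ratio was 0, 4.02 and 7.65 at 2 months and 4.38 to 5.54 at 18 months, for Tlr9 it was 0, 2.26 and 1.02 against 0.934 to 1.32, and for Tlr7 it was 60.5, 3.80 and 20.9 against 3.998 to 8.01. For these 4 receptors the ages overlapped on this scale.

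For Tlr4 the ratio was 4368, 20.2 and 403 at 2 months and 7.18 to 7.81 at 18 months, and for Tlr3 it was 1658, 11.1 and 134 against 0.855 to 0.926. Tlr2 had 1066, 14.5 and 140 against 8.58 to 9.66, and Tlr5 and Tlr1 were also higher per Ptprc count in every young library. The ages overlapped for Tlr6, with 250, 4.09 and 40.6 against 2.99 to 4.19. In 2-month replicate 1, where Ptprc had 38 counts, there were 1660 counts of Tlr4, 630 of Tlr3, 405 of Tlr2 and 95 of Tlr6. In the same library Tlr1 had 9 counts, Tlr13 had 12, Tlr7 had 23, and Tlr8 and Tlr9 had 0.

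The order of the receptors by level differed between the ages. At 2 months Tlr4 was highest, at 4.70 ± 0.954 FPKM (SD, n = 3), followed by Tlr2 at 3.50 ± 1.21 and Tlr3 at 2.03 ± 0.219. Tlr4 and Tlr2 were within the spread of the libraries of each other, and Tlr4 was above Tlr2 in 2 of 3 libraries. Tlr2 was above Tlr3 in all 3, with no overlap. From Tlr3 downwards, each pair of neighbours in the order overlapped, from Tlr13 at 0.961 ± 1.39 FPKM through Tlr6, Tlr1, Tlr7, Tlr8 and Tlr5 to Tlr9 at 0.222 ± 0.369. Without 2-month replicate 2, Tlr13 moved from position 4 to position 7 and Tlr5 from position 9 to position 6, while Tlr4, Tlr2 and Tlr3 stayed the highest.

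At 18 months Tlr13 was highest, at 19.0 ± 0.629 FPKM (SD, n = 3), followed by Tlr2 at 13.3 ± 1.45, and neither overlapped with its neighbour in the order. Tlr7 at 6.91 ± 1.55, Tlr8 at 5.96 ± 0.496 and Tlr4 at 5.88 ± 0.788 FPKM overlapped with each other. Tlr6 followed at 4.35 ± 0.128, Tlr1 at 3.30 ± 0.254 and Tlr9 at 1.43 ± 0.308 FPKM, each clear of its neighbours. Tlr3 at 0.759 ± 0.140 and Tlr5 at 0.745 ± 0.220 FPKM were lowest and overlapped. Tlr3 thus went from position 3 to position 9 and Tlr4 from position 1 to position 5.

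The 10 receptors together summed to 10.9, 18.5 and 12.1 FPKM in the young libraries and to 64.2, 60.3 and 60.3 FPKM in the aged ones. Receptors of the cell surface took 78.5%, 60.2% and 78.8% of that sum at 2 months and 43.1% to 47.5% at 18 months. Tlr4 alone took 49.8%, 19.6% and 41.7% at 2 months and 8.85% to 10.6% at 18 months, and Tlr13 took 0.434%, 13.9% and 2.23% against 30.4% to 31.7%. Within the endosomal receptors, Tlr3 made up 93.7%, 28.7% and 69.3% of the FPKM in the young libraries and 1.88% to 2.71% in the aged ones. The share of Tlr2 ranged from 22.4% to 26.7% at 2 months and from 20.4% to 23.3% at 18 months, so it differed little although its level rose.

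**Figure D4:**
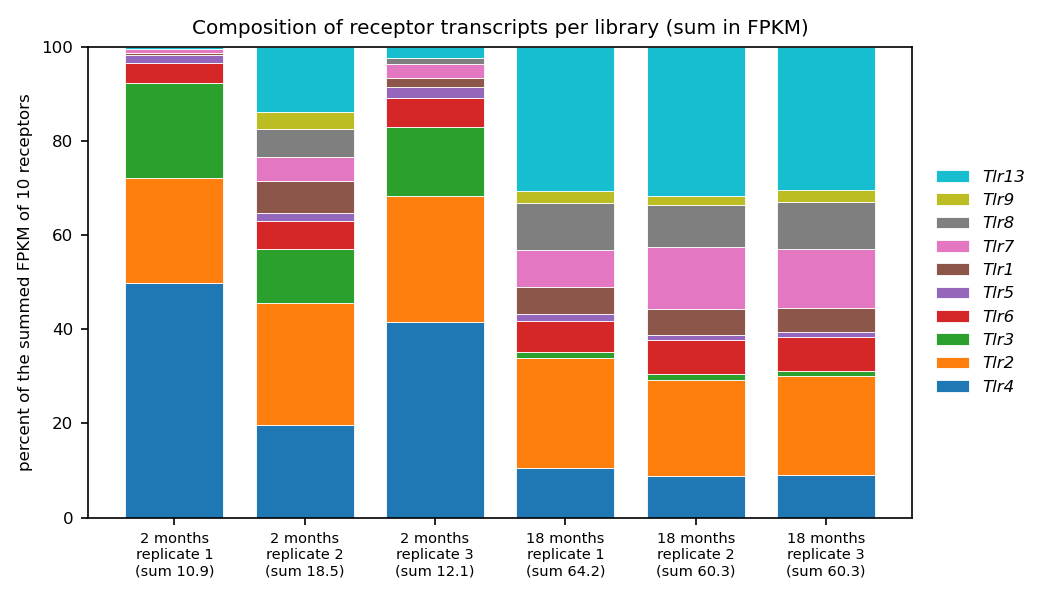
Share of each receptor in the summed FPKM of the 10 receptors, one bar per library, with the sum in FPKM under each bar. The aged bars are alike, with Tlr13 at 30.4% to 31.7%, and the bar of 2-month replicate 2 lies between those of the other young libraries and the aged ones for Tlr4 and Tlr13.

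Most of the receptors keep their coding sequence in a single large exon, as annotated in GENCODE M21 on GRCm38. In the transcript with the longest coding sequence, the largest coding exon holds 100% of it in Tlr1, Tlr2 and Tlr6, 99.9% in Tlr7, Tlr8 and Tlr9, 98.8% in Tlr13 and 98.5% in Tlr5. It holds 89.7% in Tlr4, which has 3 coding exons, and 68.3% in Tlr3, which has 4. Coding lengths run from 2352 bases in Tlr2 to 3150 bases in Tlr7.

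The promoters of 8 receptors were found by symbol in RefSeq tables on GRCm38.p6, as windows from 250 bases before to 50 bases after a start site. Tlr1 and Tlr6 had more than one start site there. Those of Tlr13 and Tlr8, with 12 and 0 counts in 2-month replicate 1, and of Tlr2 and Tlr3, with 405 and 630, are printed to set these patterns side by side. Capitals mark matches to any of 6 motifs searched on both strands, GAGGAA (the core bound by PU.1, a factor of myeloid and B cells), the NF-κB motif (GGG and CC with 5 bases of any kind between), the interferon response core (a pair of GAAA with 2 bases of any kind between), TTGCNNAA (C/EBP), TGANTCA (AP-1) and TATAAA (the box bound by TBP). The start sites were 71 bases (Tlr13), 0 bases (Tlr8), 159 bases (Tlr2) and 700 bases (Tlr3) away from the gene starts in the deposited table.
Tlr13, chrX:106143025-106143324, plus strand: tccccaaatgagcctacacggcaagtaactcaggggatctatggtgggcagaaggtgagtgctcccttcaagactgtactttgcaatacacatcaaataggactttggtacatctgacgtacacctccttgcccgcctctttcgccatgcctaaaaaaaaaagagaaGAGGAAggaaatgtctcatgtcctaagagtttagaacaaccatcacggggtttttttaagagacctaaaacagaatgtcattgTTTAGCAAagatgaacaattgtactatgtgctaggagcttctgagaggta
Tlr8, chrX:167264280-167264579, minus strand: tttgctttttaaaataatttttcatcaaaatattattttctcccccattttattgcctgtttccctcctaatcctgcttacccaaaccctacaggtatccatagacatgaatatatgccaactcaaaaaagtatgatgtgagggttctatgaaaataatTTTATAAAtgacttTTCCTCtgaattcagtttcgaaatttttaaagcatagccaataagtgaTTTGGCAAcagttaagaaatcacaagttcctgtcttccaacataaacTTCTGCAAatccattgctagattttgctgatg
Tlr2, chr3:83841559-83841858, minus strand: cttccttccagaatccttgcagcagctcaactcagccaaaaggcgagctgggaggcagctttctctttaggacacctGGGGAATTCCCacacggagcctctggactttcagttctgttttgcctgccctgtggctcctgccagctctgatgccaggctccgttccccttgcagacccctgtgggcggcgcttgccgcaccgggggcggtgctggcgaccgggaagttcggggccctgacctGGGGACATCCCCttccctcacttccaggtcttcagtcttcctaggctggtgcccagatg
Tlr3, chr8:45410331-45410630, minus strand: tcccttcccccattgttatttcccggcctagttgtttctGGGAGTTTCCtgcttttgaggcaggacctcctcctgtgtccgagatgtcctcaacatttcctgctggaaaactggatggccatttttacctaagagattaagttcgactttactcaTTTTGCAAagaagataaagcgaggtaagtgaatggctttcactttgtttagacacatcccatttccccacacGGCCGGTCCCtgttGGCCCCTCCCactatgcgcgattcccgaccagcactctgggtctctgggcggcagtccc

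GAGGAA was found in the promoters of Tlr1, Tlr8, Tlr9 and Tlr13, 4 of the 8 receptors, and in 28.1% of all 32544 promoters. It lay at position −83 from the start site in Tlr13 and at −77, on the opposite strand, in Tlr8. The NF-κB motif was found in Tlr2, Tlr3, Tlr5 and Tlr6 and in 51.0% of all promoters, and TTGCNNAA in Tlr3, Tlr6, Tlr8 and Tlr13 and in 10.8% of all promoters. In Tlr2 the matches to the NF-κB motif overlap each other at both of their positions, since the letters can be read on both strands and from neighbouring bases. The interferon motif occurred in Tlr6 (3.45% of all promoters), the AP-1 motif in Tlr9 (7.79%) and TATAAA in Tlr6 and Tlr8 (13.6%). Receptors were counted by gene, with a match in any of their windows, and Tlr1 and Tlr6 had more than one. The shares over all promoters were counted by window, so the units differ. A match is a description of the letters and not a bound site.

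The other genes of the pathway were read from lists by role. Without the 10 receptors they held 87 genes, of which 85 were tested, 18 were called higher (21.2%) and 6 lower (7.06%), beside 14.9% and 21.3% over all genes. Their median log2 fold change was 0.73. Without 2-month replicate 2, 37 were called higher and 6 lower, while over all genes the number called higher went from 3047 to 5007 and the number called lower from 4354 to 4576. Ifnb1 had no entry under that symbol among the genes of the deposited table, and Il12b did not pass the filter on low counts.

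**Figure D5:**
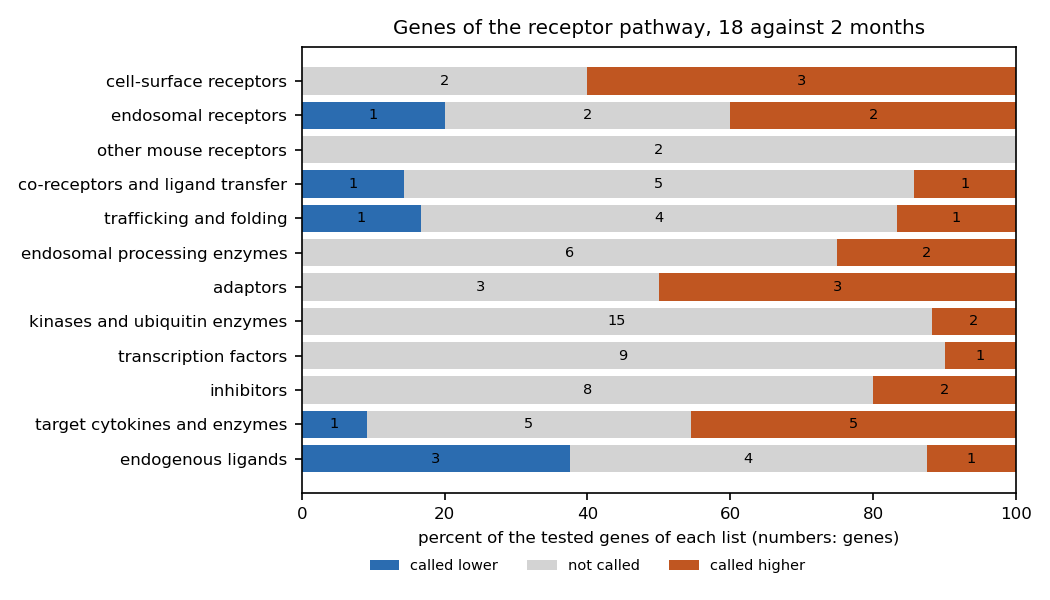
Percent of the tested genes of each pathway list that were called lower, not called or called higher at 18 months, with the number of genes in each part of a bar. Adaptors and target cytokines have the largest parts called higher after the receptors of the cell surface, and endogenous ligands the largest part called lower.

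Among co-receptors, 1 of 7 was called higher and 1 lower. Cd36, a scavenger receptor that works with Tlr2, changed by 2.86 (edgeR adjusted p = 0.0148), and Tril, an accessory protein of Tlr3 and Tlr4, fell by 2.09 on the log2 scale (edgeR adjusted p = 0.00465). The partners of Tlr4 were not called. Cd14 had 1673, 698 and 945 counts at 2 months and 1556, 931 and 953 at 18 months, Ly96, which encodes MD-2, had 57 to 99 and 124 to 144, and Lbp had 3929 to 7460 and 5097 to 5620. Of 6 trafficking genes, Unc93b1, which carries nucleic acid receptors to endosomes, was called higher at 2.68 (edgeR adjusted p = 0.0462). Hsp90b1, the chaperone gp96 that many of the receptors need for folding, was called lower at −1.08 (edgeR adjusted p = 0.0379).

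Of 8 endosomal enzymes, 2 were called higher and none lower. They were Ctss, a cathepsin, at 3.78 (edgeR adjusted p = 0.0335) and Dnase2a, a nuclease of lysosomes, at 1.43 (edgeR adjusted p = 0.00275). Of 6 adaptors, 3 were called higher, and Myd88 changed by 1.67 (edgeR adjusted p = 0.0018), Ticam2 by 2.06 (edgeR adjusted p = 0.00382) and Tirap by 1.28 (edgeR adjusted p = 0.00824). Ticam1, the adaptor of Tlr3, had a log2 fold change of 0.66, under the limit. Of 17 kinases and ubiquitin enzymes, Irak4 (1.58) and Tab3 (1.11) were called higher, and the list had a median log2 fold change of 0.48. Of 10 transcription factors, Irf7 was called higher, with 103, 913 and 186 counts at 2 months and 2212 to 2366 at 18 months. Rela, a subunit of NF-κB, had a log2 fold change of 0.30, and Irf3 had one of −0.20.

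Of 10 inhibitors, Irak3 and Il1rl1 were called higher. Irak3, a kinase-dead relative of the IRAK kinases that dampens the MyD88 pathway, had 435, 591 and 511 counts at 2 months and 3088, 2770 and 2575 at 18 months, a log2 fold change of 2.19 (standard error 0.12, edgeR adjusted p = 0.000706). The 3 young libraries lay close together for Irak3. Of 11 tested target genes, Il1b, Il6, Cxcl2, Ccl3 and Ccl5 were called higher and Ptgs2 was called lower. Il1b had 17, 228 and 9 counts at 2 months and 3997, 2951 and 2886 at 18 months, while Il6 had 0, 7 and 0 and 39, 110 and 46. Cxcl2 had at most 3 counts in each young library and was at least 58.8-fold higher at 18 months, taking 3 counts per library as the floor. Ptgs2, which encodes an inducible cyclooxygenase, had 1763, 1056 and 909 counts at 2 months and 161, 105 and 50 at 18 months.

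Of 8 endogenous ligands, Hmgb1 was called higher at 1.36 (edgeR adjusted p = 0.00437). Bgn, Dcn and Fn1, the matrix proteins biglycan, decorin and fibronectin, were called lower at −2.51, −3.34 and −2.61. S100a8 and S100a9, which also stand in the neutrophil list, had log2 fold changes of 5.34 and 5.19 with standard errors of 2.12 and 2.25, and neither was called.

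For Tlr13 and Tlr4, which are among the 3 receptors with the highest mean FPKM, the genes outside the Tlr family with the most similar profile over the 6 libraries were found. Likeness was measured as the root mean square difference of log2(CPM + 1), with each gene centred on its own mean, among 20069 genes. The added 1 shrinks the differences of genes with low counts. For Tlr13 they were Mgst1 (0.064), Klf1 (0.118) and Fcer1g (0.135). Mgst1 encodes a microsomal glutathione transferase, Klf1 a factor of red cell precursors and Fcer1g the common chain of Fc receptors in myeloid cells. For Tlr4 they were Dnajc19-ps (0.0516), Gm11478 (0.0704) and Rnf113a2 (0.0743). In FPKM, Dnajc19-ps was at 4.23, 1.76 and 3.10 in 2-month replicates 1, 2 and 3, where Tlr4 was at 5.43, 3.62 and 5.05. Its spread was thus wider in FPKM than that of Tlr4. The 6 points share the step between the ages and the libraries themselves, and the values are a description.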

How the data were processed

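Articular cartilage of wildtype mice was sequenced in 3 libraries per age. The authors deposited counts per gene and library, whole numbers without normalization, and FPKM values, scaled for transcript length and library size. The submitters' processing notes name cutadapt 1.9, HISAT2 2.0.4, UMI-tools and StringTie 1.3.4d, with adapters that carry molecular identifiers, and their counting, annotation and strand setting are not given in the sources used here. Of the table's genes, 99.7% were found in GENCODE M21, and 91.3% of those had the same coordinates, so positions are on GRCm38. The members and gene lists were chosen with earlier results of these data known.

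The test of age used edgeR 4.0.16 in R 4.3.3 (TMM, filterByExpr, quasi-likelihood test, no block, and the fold limit the study used), with p-values adjusted by Benjamini-Hochberg over the 20397 genes tested. Standard errors came from each log2 fold change and its F statistic. Exact permutation tests of 3 against 3 libraries cannot go below p = 0.1 and were not used. Alternatives used DESeq2 1.42.0, limma 3.58.1 on log2(FPKM + 0.1), other scalings and filters, a replicate block, and each library left out. The fitting code was also run on simulated counts with known changes. At the spread of these libraries, that run gave no reassurance that small changes would be called. Figures used matplotlib 3.10.9. The rule for names took all 10 receptors, genes of the role lists, and the 3 most similar genes of the 3 most abundant receptors, of which those of Tlr2 are not reported here. There were 0 unused value columns.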

Additional observations from a re-analysis of the deposited data

How the results depend on the processing

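Tlr2, Tlr6 and Tlr7 were called higher in every alternative run, and Tlr3 kept its sign in every one. Against 5 receptors called higher, limma on log2(FPKM + 0.1) and limma with a pseudocount of 0.01 called 8 each, the glmTreat test against a fold change of 2 called 3, and the fits with 1 library left out called 4 to 8. Limma with a pseudocount of 1 called 0 receptors lower, where the main count was 1. Against 18 pathway genes called higher, DESeq2 called 30, limma on log2(FPKM + 0.1) 33, limma with pseudocounts of 1 and 0.01 28 and 33, limma with TPM 27, glmTreat 10, edgeR without a fold limit 34, and fits with 1 library left out 13 to 37. Over all genes, where 3047 were called higher, the same settings gave 3989, 4365, 3041 and 4266, 3109, 1366, 4769, and 2095 to 5007, in that order. With pseudocount 1 limma called 4 pathway genes lower, and edgeR called 6. Over all genes the same limma fit called 2217 lower, and edgeR called 4354. The sign of Tlr4 turned only when FPKM was rescaled to TPM in limma, to −0.10. The cause of these shifts was not tested. Tlr5 and Tlr9 had a mean FPKM below 1 and gave no value under that filter. Without 2-month replicate 2, the mean share of the receptor sum at 2 months was 45.7% for Tlr4 and 1.33% for Tlr13, against 37.0% and 5.51%. With replicate numbers as a block, 4 receptors were called higher and 1 lower, with 18 and 6 pathway genes, and Tlr5 lost its call. Over all genes, 2523 were called higher and 3509 lower with the block, against 3047 and 4354 without it. Deviations of same-numbered libraries from the mean of their age correlated at 0.0911, 0.0938 and −0.0868. Replicate 3 at 2 months correlated best with replicate 1 at 18 months. With 3 libraries per age, such values cannot show whether the numbers pair the libraries. Counts of 0 to 12 for Tlr1, Tlr8, Tlr9 and Tlr13 in 2-month replicate 1 limit the precision of their young levels.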
